A study of Mus musculus with 18 samples.

Results

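Skeletal muscle myosin chains were followed by isoform through dopaminergic differentiation of mouse D3 embryonic stem cells, with and without knockdown of the purine salvage gene Hprt. The set holds 10 genes, covered by 17 probes, of 30869 gene symbols and 45281 probes on the bead array. The genes were Myh3, Myh8, Myh2, Myh1 and Myh7 (heavy chains) and Myl1, Mylpf, Myl4, Myl3 and Myl2 (light chains). Members were the probes whose annotated symbol matched one of these names. The genes themselves were chosen by their difference in signal between knockdown and control at the neuronal stage, so values from that stage are given as a description, with no test.

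All cells came from the D3 line of strain 129s2/SvPas and all carried a virus with a short hairpin RNA. In control cells the hairpin was directed against luciferase, and in knockdown cells it was directed against Hprt. Each was sampled as embryonic stem (ES) cells kept on mouse embryo fibroblast feeder cells, as spherical neural masses (SNM) and at the neuronal stage, which gave 6 groups of 3 arrays and 18 arrays in all. Only the D3 line was used, and total RNA from repeated cultures was pooled before hybridization. The 3 arrays of a group therefore differ as technical repeats of a pool, and every p-value below measures a difference between pools against that spread.

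Muscle myosin is a hexamer in which heavy chains carry the motor domain and the lever arm, and each heavy chain binds an essential and a regulatory light chain. Vertebrate skeletal muscle changes isoforms as it matures: Myh3 encodes the embryonic and Myh8 the perinatal (neonatal) heavy chain, Myh2 and Myh1 encode the adult fast IIa and IIx chains, and Myh7 encodes the slow chain, which the heart ventricle also uses. Among the light chains, Myl1 (essential) and Mylpf (regulatory) belong to fast fibres, Myl3 (essential) and Myl2 (regulatory) to slow fibres and ventricle, and Myl4 is the essential chain of embryonic muscle and atrium.

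Myh3, Myh2, Myh1 and Myh8 lie in this order along chromosome 11, in a cluster that also holds Myh4 and ends with Myh13. The 250 bases before each RefSeq gene start (GRCm38.p6, plus strand) are shown because these neighbours were at different levels of detection on the arrays. They span chr11:67078050-67078299 for Myh3, chr11:67170777-67171026 for Myh2, chr11:67199852-67200101 for Myh1 and chr11:67276874-67277123 for Myh8. Capitals mark every exact run of 10 or more bases that a sequence shares with another of the 4.
Myh3: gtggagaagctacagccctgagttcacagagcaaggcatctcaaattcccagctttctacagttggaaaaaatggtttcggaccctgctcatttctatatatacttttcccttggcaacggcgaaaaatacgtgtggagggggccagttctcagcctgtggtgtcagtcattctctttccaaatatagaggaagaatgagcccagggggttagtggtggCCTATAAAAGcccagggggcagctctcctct
Myh2: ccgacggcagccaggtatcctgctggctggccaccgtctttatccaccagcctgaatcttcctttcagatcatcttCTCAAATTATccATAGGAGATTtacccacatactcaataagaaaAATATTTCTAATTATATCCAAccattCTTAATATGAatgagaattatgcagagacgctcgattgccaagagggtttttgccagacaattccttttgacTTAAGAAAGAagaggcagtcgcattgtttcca
Myh1: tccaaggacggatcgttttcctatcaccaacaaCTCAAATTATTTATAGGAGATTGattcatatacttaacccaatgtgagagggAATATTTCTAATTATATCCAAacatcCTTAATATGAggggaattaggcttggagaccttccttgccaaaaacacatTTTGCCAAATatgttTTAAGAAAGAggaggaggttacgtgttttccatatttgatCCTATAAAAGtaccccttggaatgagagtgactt
Myh8: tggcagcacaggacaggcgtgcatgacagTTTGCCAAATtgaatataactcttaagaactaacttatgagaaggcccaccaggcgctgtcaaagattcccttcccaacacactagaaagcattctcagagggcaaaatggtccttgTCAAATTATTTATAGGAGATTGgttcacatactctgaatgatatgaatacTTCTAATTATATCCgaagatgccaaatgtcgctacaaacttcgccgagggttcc

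The longest shared run had 22 bases and was common to Myh1, where it began 216 bases before the start, and Myh8, where it began 104 bases before the start. It holds the only matches in the 4 sequences to the MEF2 consensus, the A/T-rich element bound by the MEF2 factors of muscle. Myh2 and Myh1 shared a run of 21 bases, of which 14 bases were also found before Myh8. The single run of Myh3 had 10 bases, was shared with Myh1 and contained TATAAA, 29 bases before the Myh3 start and 32 before the Myh1 start.

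All 10 members had a promoter sequence in the table, in 12 windows of 250 bases. Searched on both strands, the MEF2 consensus was found in 2 of the 12 windows (Myh1 and Myh8) and in 2.92% of the 32851 windows of all genes. The E-box CANNTG, read by the MyoD family among many other factors, was found in 9 of 12 member windows and in 66.2% of all windows. CAGCTG, a form of the E-box, was found before Myl1, Myl2 and Mylpf and in 13% of all windows. CATTCC, the M-CAT element, was in 4 member windows and 12.6% of all, TATAAA, which overlaps the MEF2 match of Myh1 and Myh8, was in 5 and 12.4%, and the CArG box was in 1 (Myl3) and 1.47%. A match here is a string of letters only, and the motifs were not tested for a relation to the signals.

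**Figure D1:**
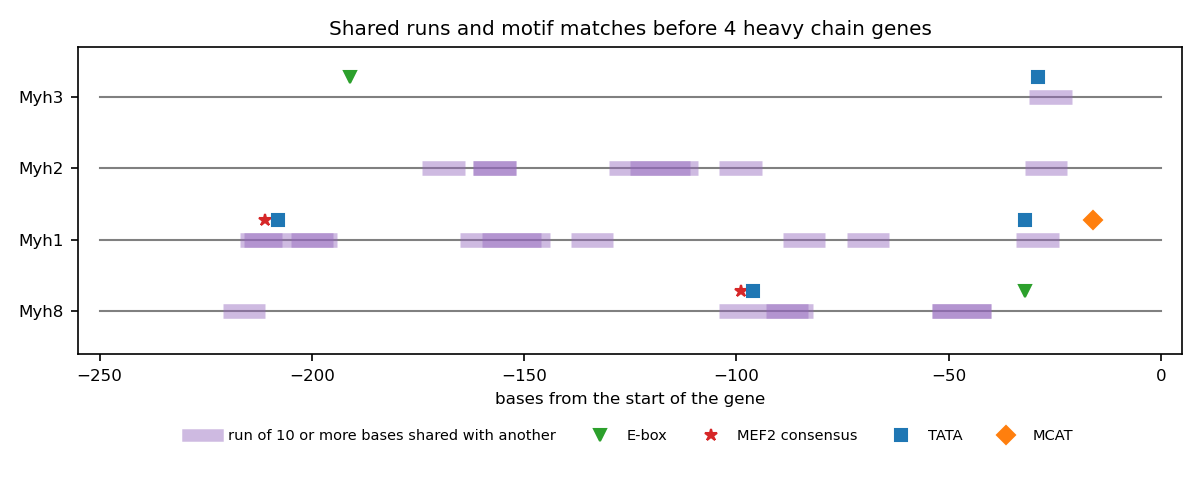
Exact shared runs and motif matches in the 250 bases before the start of 4 heavy chain genes. The x axis gives bases from the gene start; purple bars mark runs of 10 or more bases shared with another of the 4 (darker where runs overlap) and symbols mark the first base of motif matches on either strand. Myh1 and Myh8 each carry a MEF2 consensus match inside their shared run of 22 bases, at 211 and 99 bases before the start.

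The labels were checked on Hprt, listed as Hprt1 with 3 probes. By its brightest probe the signal was 4333 to 4396 in control and 215 to 305 in knockdown ES cells, 2281 to 2688 and 701 to 855 at the SNM stage, and 1860 to 2365 and 143 to 160.4 at the neuronal stage (log2 differences of -4.09, -1.76 and -4.45). Between 18827 and 22202 probes were detected per array (detection p under 0.05 against the negative control beads), and log2 signals of arrays of the same group correlated at 0.992 to 0.997. In the neuronal-stage control group 10 of 12 neuron markers were detected on all 3 arrays, and the brightest probes of Snap25 and Nefl on none of the 18 arrays. All 12 skeletal muscle markers were also detected on all 3 arrays of that group. In bulk RNA, fewer cells of a type and less RNA per cell cannot be told apart.

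Myh3, the embryonic heavy chain, was detected on all 15 arrays of the ES, SNM and control neuronal groups. Its deposited signal (bead intensity, not normalized) was 180.1, 172 and 194 in control and 190.3, 213 and 169 in knockdown ES cells. At the SNM stage the signals were 234, 239 and 214 in control and 590.3, 610.2 and 641.5 in knockdown cells. The ES groups overlapped, whereas every knockdown SNM array lay above every control SNM array (56.1% of all probes tested did not overlap between these groups). Control neuronal arrays read 8661, 7184 and 7838. The knockdown arrays read 80.5, 67.2 and 78.3, the second of these not detected, so that Myh3 was there lower than in any other group.

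Myh8, the perinatal heavy chain, has 3 probes. The brightest was near the detection limit in ES cells, with 74.8, 73.5 and 78.7 in control and 81.7, 69.9 and 71.5 in knockdown cells, and was called detected on 1 array of each group. At the SNM stage it read 189.9, 186 and 167 in control cells and 585, 598 and 514 in knockdown cells, with no overlap. Control neuronal arrays read 10787, 9241 and 10742, and knockdown neuronal arrays 89.3, 88.6 and 82.5, which were all detected. The order of the groups was thus the same by this probe in both developmental heavy chains from the SNM stage on: control neuronal, knockdown SNM, control SNM, knockdown neuronal. The other probes of Myh8 were dimmer, with 2421 to 3024 and 1459 to 1884 in control neuronal cells, and had the same order of group means over these 4 groups.

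The adult fast heavy chains were detected in a single group. Myh1 read 1544, 1274 and 1426 on the control neuronal arrays by its brighter probe and 467, 478 and 513 by the other. On the other 15 arrays the brighter probe lay between 54.9 and 73.4 and neither probe was detected. Myh2 read 185, 147 and 190.4 on the control neuronal arrays and was not detected on any other array, where it lay between 54.3 and 77.4. The slow heavy chain Myh7 was not detected by any of its 3 probes on any of the 18 arrays, with signals from 52.9 to 74.3. Of these 5 heavy chains, those detected in ES or SNM cells were accordingly the embryonic and the perinatal isoform alone.

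Myl1, the essential light chain of fast fibres, read 86.5, 83.8 and 83.7 in control ES cells. In knockdown ES cells it read 115, 64.9 and 68.9, and only the first of these arrays was called detected. SNM arrays read 1351, 1415 and 1351 in control and 1956, 1960.4 and 2130 in knockdown cells. All SNM arrays were far above all ES arrays, and the knockdown SNM arrays lay above the control SNM arrays without overlap. At the neuronal stage control arrays read 24716, 22096 and 24585 and knockdown arrays 231, 149 and 168. The second probe of Myl1 was not detected in ES cells, read 91.7 to 100 in control and 89.1 to 103 in knockdown SNM cells, and reached 1336 to 2005 in control neuronal cells only.

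Mylpf, the regulatory light chain of fast fibres, was detected on all 18 arrays by both of its probes. Its brighter probe read 893, 768 and 759.6 in control and 1061, 1061 and 895 in knockdown ES cells, and 456, 476 and 449.5 in control and 819, 698 and 909 in knockdown SNM cells. By this probe control cells therefore went down and knockdown cells stayed nearer to their ES level over the first step. At the neuronal stage the control arrays read 15581, 11637 and 15011 and the knockdown arrays 164, 145 and 158. The second probe read 341 to 412 in control ES, 404 to 578 in knockdown ES, 325 to 363 in control SNM and 565 to 713 in knockdown SNM cells. Over the first step its mean thus went from 373 to 347 in control cells and from 489 to 652 in knockdown cells, unlike the brighter probe. It read 12807 to 16616 in control and 96.6 to 121 in knockdown neuronal cells.

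Myl4, the embryonic and atrial essential light chain, read 276, 250.1 and 265 in control and 319, 352 and 286 in knockdown ES cells. It read 507, 584 and 536 in control and 1223, 1111 and 1326 in knockdown SNM cells. The groups did not overlap at either of these stages, as for 31.6% of all probes tested in ES cells, with the knockdown arrays above the control arrays. Control neuronal arrays read 12271, 10532 and 12280 and knockdown neuronal arrays 131, 127 and 126, below every ES array.

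Myl3, the slow and ventricular essential chain, was brightest in ES cells, with 459, 427 and 442 in control and 240.2, 259.5 and 229 in knockdown cells. It read 105, 90.4 and 98.1 in control SNM and 92.4, 81.4 and 87.9 in knockdown SNM cells, which overlapped as deposited but not after normalization. At the neuronal stage the control arrays read 87.4, 67.4 (not detected) and 80.5 and the knockdown arrays 124, 128 and 122, so that Myl3 was the member that was higher in knockdown cells at this stage. Myl2, the slow and ventricular regulatory chain, was detected in control neuronal cells alone, at 308, 286 and 296, against 47.4 to 68.4 on the other 15 arrays.

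**Figure D2:**
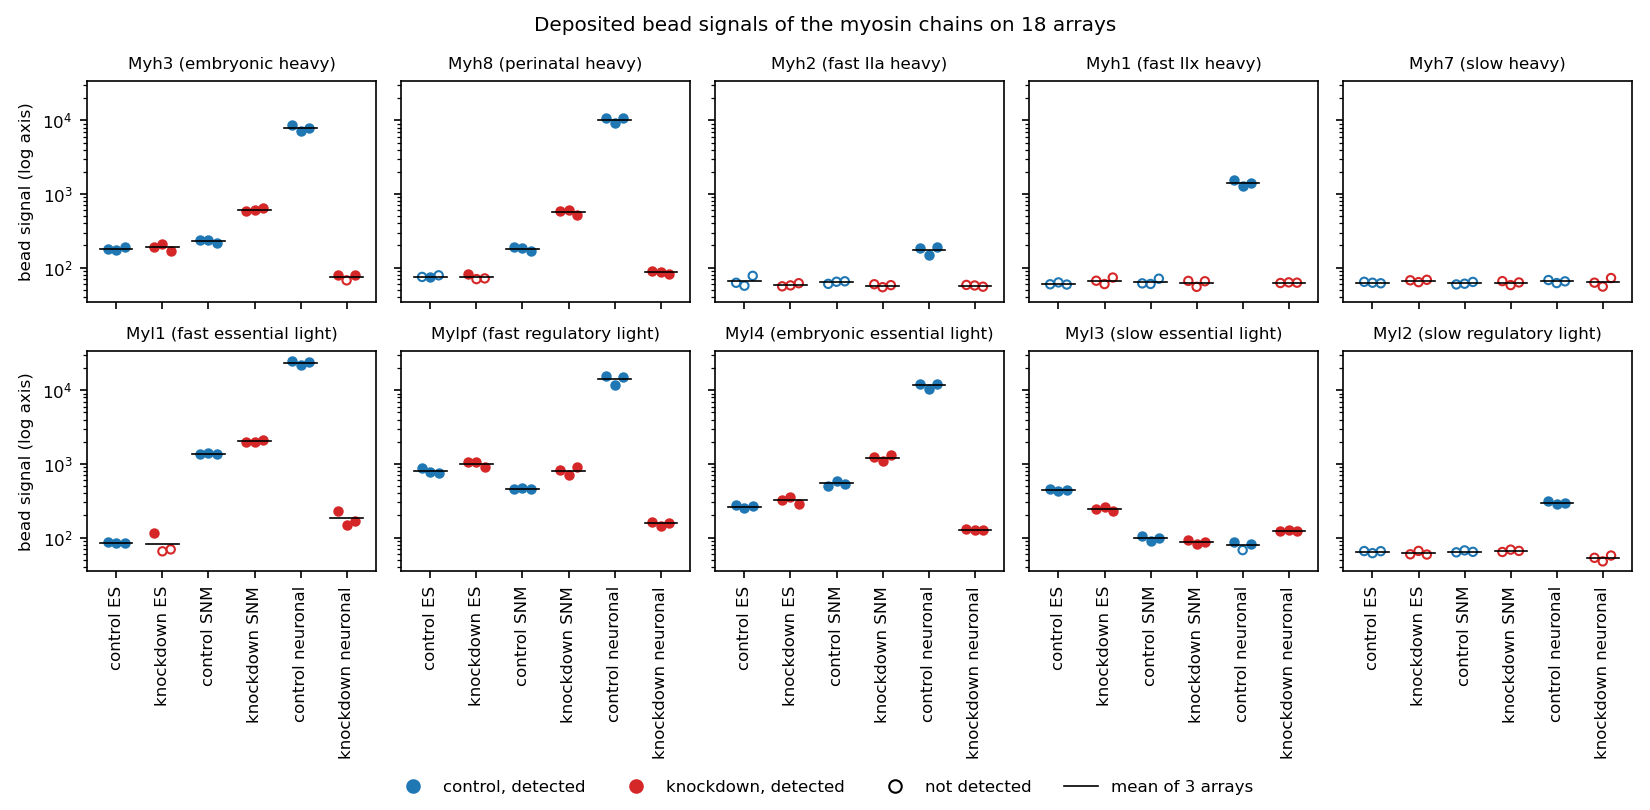
Deposited bead signals of the 10 myosin chains, by the brightest probe of each gene, on a logarithmic y axis; the x axis gives the 6 groups. Points are arrays (3 per group, filled where detected and open where not), colours are control and knockdown, and bars are means of 3 arrays. Myh3, Myh8, Myl1, Mylpf and Myl4 read 7184 or more on all control neuronal arrays and 231 or less on all knockdown neuronal arrays, Myh7 is open on all 18 arrays, and Myl3 is highest in the ES groups.

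The first question was whether the chains already differed in undifferentiated cells. Of the members, 5 were tested at the ES stage (detected on all 3 arrays of at least 1 group), and 1, Myl3, was called lower in knockdown cells (adjusted p under 0.05 and at least 1.5-fold). By the same rule 1.17% of all probes tested were called lower. Myl3 fell by 1.05 on the log2 scale (SE 0.12, limma adjusted p = 7.57e-05). Myl4 was 0.21 higher (SE 0.06, limma adjusted p = 0.0463) and under 1.5-fold. Log2 differences were 0.23 (SE 0.09) for Mylpf and 0.00 for Myh3 (SE 0.10), with adjusted p-values of 0.123 and 0.994 in limma's test. Myl1 had passed the filter through the control group alone, so that its difference of -0.25 (SE 0.35) is a description. It was -0.87 without the first knockdown ES array, the only array of that group that detected Myl1.

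In SNM cells the embryonic and perinatal heavy chains and the light chains Myl4 and Mylpf were higher with the knockdown. All 6 members tested were detected on all 3 arrays of both groups, and 4 were called higher and none lower, where 11% of all probes tested were called higher and 8.9% lower. Myh8 rose by 1.99 (SE 0.15, limma adjusted p = 3.03e-08) and Myh3 by 1.69 (SE 0.10, limma adjusted p = 9.07e-10). Myl4 rose by 1.35 (SE 0.06, limma adjusted p = 9.68e-11) and Mylpf by 0.96 (SE 0.09, limma adjusted p = 2.71e-07). The other probes of Myh8 were 1.43 and 1.02 higher and that of Mylpf 1.06 higher, and all 3 were called. The median over the 6 members was 1.15, against -0.04 over all probes tested.

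Myl1 and Myl3 were not called at the SNM stage. Myl1 was 0.66 higher (SE 0.35, limma adjusted p = 0.13), with arrays that did not overlap, and its second probe was -0.07 apart (SE 0.10). The spread of Myl1 came largely from the first knockdown ES array, where it read 115, since all 6 groups share 1 estimate of the error. Without that array the difference was 0.65 (SE 0.17, limma adjusted p = 0.00412) and was called, and with only the SNM groups in the fit it was 0.66 (SE 0.06, limma adjusted p = 1.35e-04). Myl3 was -0.41 apart (SE 0.12, limma adjusted p = 0.0114), under 1.5-fold.

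The first step, from ES to SNM, was then compared within each kind of cell. Of 6 members tested in control cells, 3 were higher and 2 lower in SNM than in ES cells, where 23.7% of all probes tested were called higher and 25.4% lower. Myh8 had passed the filter through the SNM group alone, so that its rise is a description, as is its part in the count of 3. Myl1 rose by 4.97 (SE 0.35) and Myl4 by 0.81 (SE 0.06), and Myh8 rose at least 4.12-fold, being detected on 1 of 3 control ES arrays. Over the other settings that kept all arrays the log2 difference lay between 3.02 and 5.25 for Myl1 and between 0.98 and 2.32 for Myh8, so that this bound holds for the reported normalization and the brightest probe only. The other probes rose less. Log2 group means went from 4.49 to 5.56 for the second Myl1 probe, which no control ES array detected. Those of the other Myh8 probes went from 4.65 to 5.31 and from 4.70 to 5.11. Myl3 fell by 3.27 (SE 0.12) and Mylpf by 1.11 (SE 0.09), although the second Mylpf probe fell by only 0.46 and was not called. Myh3 did not pass the test, at 0.03 (SE 0.10, limma adjusted p = 0.805). The adjusted p-values of the 4 called members detected in both groups lay between 6.78e-13 and 1.2e-08 in limma's test.

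In knockdown cells 4 of 6 members rose and 1 fell over the same step, where 26.4% of all probes tested were called higher and 30.9% lower. Myh8 and Myl1 had passed the filter through the SNM group alone. Their rises, and their part in the count of 4, are descriptions. Only Myl4 and Myh3 were called higher with detection in both groups. Myl1 rose at least 48.5-fold and Myh8 at least 15.6-fold, each detected on 1 of 3 knockdown ES arrays. These bounds hold for the reported normalization and the brightest probe, since the log2 differences of Myl1 and Myh8 were 3.50 and 2.56 as the mean over the probes of a gene, and at the lowest 4.39 and 2.66 without background correction. Log2 group means of the second Myl1 probe went from 4.37 to 5.49 only. Those of the other Myh8 probes went from 4.71 to 6.74 and from 4.59 to 6.13. Myl4 rose by 1.95 (SE 0.06) and Myh3 by 1.72 (SE 0.10). Myl3 fell by 2.63 (SE 0.12). The probes of Mylpf differed in sign, at -0.37 and 0.31, and neither was called.

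The knockdown effect at the SNM stage was then set against that at the ES stage by an interaction term. Of 6 members tested 5 were called, all with a more positive effect in SNM cells, as for 11.7% of all probes tested. Myh8 had passed the filter through the SNM groups alone, detected on 1 of 3 arrays of each ES group. Its difference of effects, 2.02 on the log2 scale, is a description, as is its part in the count of 5. The other differences were 1.69 (SE 0.14) for Myh3, 1.14 (SE 0.09) for Myl4, 0.73 (SE 0.13) for Mylpf and 0.64 (SE 0.18) for Myl3. For Myl3, whose effect was negative at both stages and smaller at the SNM stage, the limma adjusted p was 0.00847. Myl3 read 229 to 459 on the ES arrays and only 81.4 to 105 on the SNM arrays. Changes of such dim signals are understated by the normalization. Its difference came under 1.5-fold without the second knockdown ES array (0.58), the second control SNM array (0.55) or the first knockdown SNM array (0.57). For Myl1 the difference was 0.90 (SE 0.50, limma adjusted p = 0.162). It was 1.53 without the first knockdown ES array, the only array of that group that detected Myl1.

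**Figure D3:**
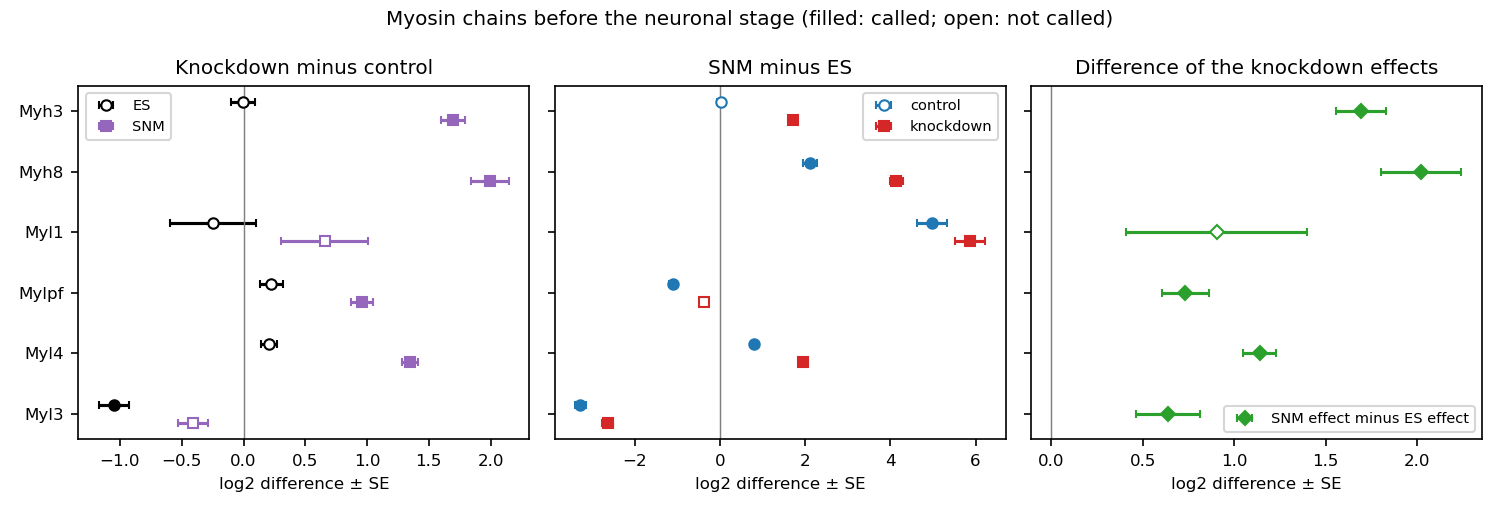
Log2 differences with standard errors (bars) for the 6 members tested before the neuronal stage; y axis, genes, and x axis, log2 difference. Left, knockdown minus control in ES and SNM cells; middle, SNM minus ES stage in control and knockdown cells; right, the SNM effect minus the ES effect. Filled symbols are called and open ones are not. Some values are descriptions, through the filter: Myl1 in ES cells (left) and Myh8 in the middle and right panels. Myl1 in knockdown cells (middle) is a description too. Myh3 lies at 0.00 in ES cells and at 1.69 in SNM cells, and Myl1 has the widest bars.

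At the neuronal stage, on which the members were chosen, 9 were detected in at least 1 group, and 8 were lower and 1 (Myl3) higher in knockdown cells by at least 1.5-fold. Over all probes tested 13.6% were lower and 14.1% higher by that fold. Myh8 was -8.12 apart on the log2 scale, Myl1 -7.64, Myl4 -7.38 and Mylpf -7.22, with -8.13 by the second Mylpf probe. As the mean over the probes of a gene the differences were smaller for Myh8 (-6.90) and Myl1 (-7.00). The second Myl1 probe was detected on no knockdown neuronal array. Without background correction the differences were as small as -6.85 for Myh8, -7.02 for Myl1, -6.47 for Myl4 and -6.46 for Mylpf. Myh3 was at least 273-fold lower, being detected on 2 of 3 knockdown arrays. Myh1, Myl2 and Myh2 were detected on none of the knockdown arrays and were at least 51.3-fold, 8.55-fold and 4.25-fold lower. The other Myh1 probe gave at least 15.6-fold. These bounds hold for the reported normalization: without background correction the log2 differences were as small as -6.68 for Myh3, -4.46 for Myh1, -2.37 for Myl2 and -1.47 for Myh2, and 0.64 for Myl3. The signal of Myl3 was higher in knockdown cells by at least 2.45-fold, since 2 of 3 control arrays detected it.

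Over the last step, from SNM to neuronal cells, Myh3, Myh8, Myl1, Myl4, Mylpf and Myl3 had differences of opposite sign in control and knockdown cells, and Myh1, Myh2 and Myl2 were detected on no knockdown array of either stage. In control cells 8 members were higher and Myl3 was lower at the end by at least 1.5-fold, as were 14.4% and 15.4% of all probes tested. The log2 increases were 6.45 for Myh8, 5.59 for Myh3, 5.31 for Mylpf, 4.79 for Myl4 and 4.26 for Myl1. Myh1 was at least 50.7-fold, Myl2 8.45-fold and Myh2 4.2-fold higher. In knockdown cells, where 14.1% of all probes tested were higher and 14.9% lower by that fold, Myl1 was -4.04 apart, Myl4 -3.93, Myh8 -3.67 and Mylpf -2.87, Myh3 was at least 18.4-fold lower, and Myl3 was 1.03 higher. These comparisons share the neuronal-stage arrays with the one above. Myl3 was detected on 2 of 3 control neuronal arrays. Without background correction its last-step differences were -0.35 to -0.31 in control and 0.53 to 0.56 in knockdown cells, under 1.5-fold in both.

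**Figure D4:**
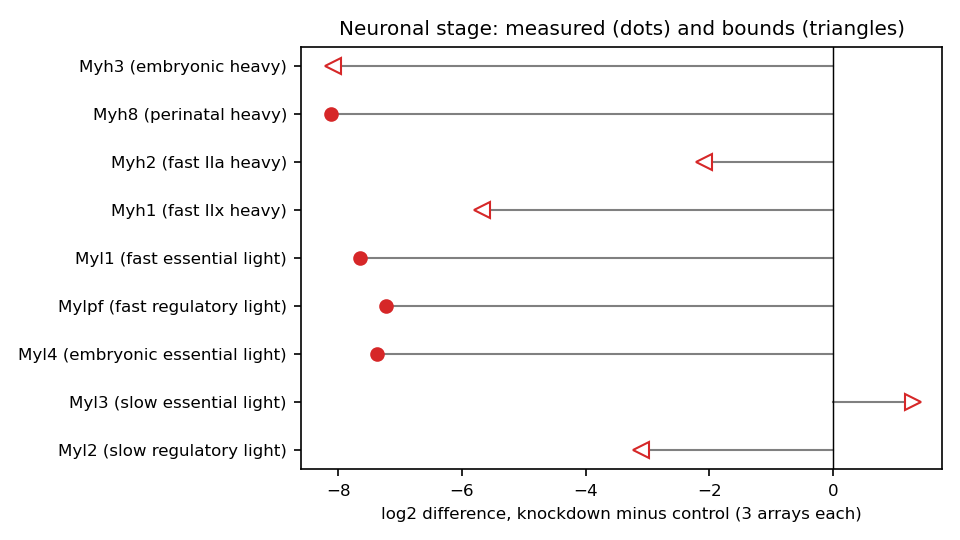
Log2 difference, knockdown minus control, at the neuronal stage (x axis) for the 9 members detected in at least 1 group (y axis). Dots are differences of the means of 3 arrays and triangles are bounds, drawn where a gene was not detected on all 3 arrays of the dimmer group. All lie to the left of 0 except Myl3, which is at least 2.45-fold higher.

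Among the other striated muscle chains, 4 of 7 genes had a probe. Myh4, the fast IIb heavy chain that lies between Myh1 and Myh8, was detected in control neuronal cells alone and was at least 44.8-fold lower in knockdown neuronal cells. Myh6, a heavy chain of heart muscle, was at least 1.87-fold lower there, and Myl7 and Myl10 were not detected at that stage. No gene of this list was called in ES cells (1 tested) or SNM cells (2 tested). At the SNM stage Myh6 and Myl7 were each 0.57 higher with the knockdown, under 1.5-fold (limma adjusted p = 0.0315 for Myl7). Both were called by the interaction term, with differences of effects of 0.96 and 0.81, where 11.7% of all probes tested were called in that direction. Myh6 had passed the filter through the knockdown SNM group alone, so that its values are descriptions.

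The list of myosin chains of non-muscle and smooth muscle cells also holds Mylk, the kinase of their regulatory light chain, and 9 of its 10 genes had a probe. Of 8 tested at the SNM stage 1 was called higher, the regulatory light chain Myl9 (1.42 higher), beside 11% of all probes tested. At the neuronal stage 1 of 8 was higher, the non-muscle heavy chain Myh14 (1.32), beside 14.1% of all probes, and none lower. The medians at these stages were 0.28 and -0.13. By the interaction term 2 of 8 were called, with differences of effects of 2.08 for Myl9, near that of Myh8, and 0.85 for Myh14. In ES cells Myl9 was called lower with the knockdown (-0.65). The difference between this list and the members was not tested.

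Of the partners of the thick filament and the M-band, 13 of 16 had a probe. At the SNM stage 5 of 8 tested were called higher and none lower, with a median of 0.59, where 11% of all probes tested were called higher. On all SNM arrays of a group, 4 were detected in control and 7 in knockdown cells, so that some were tested through the knockdown group alone. Myom3 was detected on no control SNM array, and its value is a description. The 4 with the largest change were the giant elastic protein titin, Ttn (0.79), and the M-band proteins Myom3 (0.77), Myom2 (0.65) and Myom1 (0.59). The fifth, the myosin chaperone Unc45b (0.59), was named after its value was seen. None of 5 tested was called at the ES stage. At the neuronal stage 9 of 12 were lower in knockdown cells and none was higher, where 13.6% of all probes tested were lower by at least 1.5-fold. On all neuronal arrays of a group, 12 were detected in control and 3 in knockdown cells, so that most had passed the filter through the control group alone. That count and the median of -3.22, which rests on undetected signals, are descriptions.

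Of 12 skeletal muscle markers 9 were tested at the SNM stage, and 5 of these were higher in knockdown cells, beside the 11% of all probes: the fast troponin C Tnnc2 (1.48), the acetylcholine receptor subunit Chrna1 (1.39), the Z-disc protein Actn2 (0.99), the fast troponin T Tnnt3 (0.66), and the myogenic factor Myog (0.65), which was named after its value was seen. Of the 12 markers 7 were detected on all control and 9 on all knockdown SNM arrays, so that some were tested through the knockdown group alone. Over the 12 markers the summed normalized signal was 991 to 1013 in control and 1496 to 1678 in knockdown SNM cells, then 46579 to 47210 in control and 149 to 240 in knockdown neuronal cells. The sum over the 10 myosin chains was 2346 to 2432 and 4774 to 5043, then 72019 to 73784 and 313 to 450.

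Other cell type markers differed between the same groups, and their part in the differences of the myosin chains was not tested. Of 10 heart markers 3 were detected on all control neuronal arrays, and their sum was 170 to 189 in control and 85 to 92 in knockdown cells, with Myl7, Mybpc3, Tnni3, Tbx5 and Tbx20 detected on no array of either group. At the SNM stage 2 of 4 heart markers tested were higher in knockdown cells, beside 11% of all probes tested. These were the natriuretic peptide Nppa and the ryanodine receptor Ryr2. Nppa was detected on no control SNM array and was at least 1.46-fold higher, under 1.5-fold, so that its part in the count of 2 is a description. Ryr2 was detected on all 3 arrays of both groups and was 1.09 higher on the log2 scale. The sum over the list was 132 to 168 in control and 260 to 277 in knockdown SNM cells. Of 8 smooth muscle markers 3 were detected on all control neuronal arrays, and Myh11, Cnn1 and Lmod1 on none. The sum of 12 neuron markers was 13241 to 14507 in control and 7743 to 8994 in knockdown neuronal cells. That of 10 oligodendrocyte markers was 2973 to 3149 in control and 52791 to 57710 in knockdown neuronal cells, and that of 8 fibroblast markers 24033 to 27632 and 13165 to 16533. All 7 ES cell markers tested were lower in knockdown neuronal cells by at least 1.5-fold, as were 13.6% of all probes tested. Their sum was 9695 to 10036 in control and 3796 to 4154 in knockdown cells.

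These lists differed at the SNM stage too, where 11% of all probes tested were called higher and 8.9% lower. Of 9 oligodendrocyte markers tested there 6 were lower in knockdown cells and none higher (sum over the list 12022 to 12713 in control and 9634 to 10561 in knockdown cells), and of 7 ES cell markers 4 were lower and none higher (10230 to 11168 and 7132 to 7520). Of 8 fibroblast markers 3 were higher and none lower (7536 to 8001 and 8323 to 9876), and of 10 neuron markers 1 was higher and 3 lower (9627 to 10571 and 9333 to 10224). Neither of the 2 smooth muscle markers tested was called (168 to 209 and 144 to 216).

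**Figure D5:**
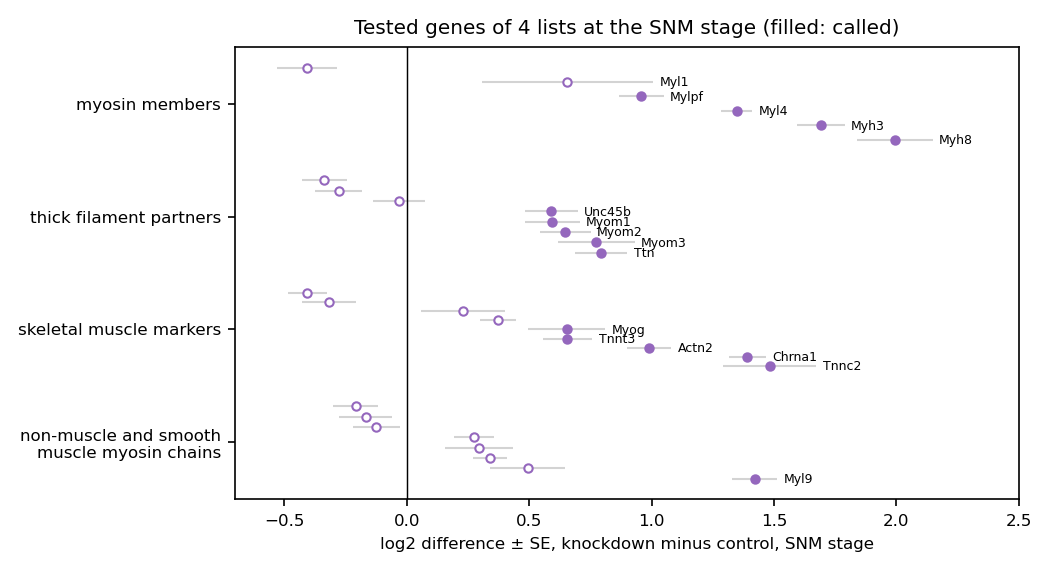
Log2 difference, knockdown minus control, at the SNM stage (x axis) with standard errors, for the tested genes of 4 lists (y axis; the non-muscle list includes the kinase Mylk); each point is a gene, filled where called. Called points of the myosin members lie from 0.96 to 1.99 and those of the thick filament partners from 0.59 to 0.79. Some partners and markers had passed the filter through the knockdown group alone. Myl9 is the single called point among the non-muscle and smooth muscle chains.

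The members were also compared with each other by pattern over the 18 arrays, whose groups set most of the spread. These arrays include the neuronal-stage arrays on which the members were chosen, so that all correlations here are descriptions. A mean profile was taken over the standardized log2 signals of the 8 members detected in control neuronal cells. Each of these 8 correlated with that profile at 0.856 (Myl1) to 0.971 (Myl4), which they helped to make, whereas Myl3 correlated at -0.566 and Myh7 at 0.176. Over 23158 other probes detected in at least 1 group, the genes with the highest correlation were Tnnc2 (0.996), Tnni2 (0.992), the fast troponin I, Csrp3 (0.989), a muscle LIM protein, Adora1 (0.989), an adenosine receptor, and LOC100044934 (0.987). Their log2 signals were highest in control neuronal cells, at 13.30, 13.05, 8.16, 10.74 and 8.18.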

How the data were processed

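Total RNA of each of the 6 conditions was hybridized to 3 Illumina MouseWG-6 v2 arrays, which per the labels are numbered 1 to 3. The authors deposited an intensity for each probe and array, the mean bead signal with no background subtraction and no scaling between arrays, and beside it a detection p-value. The deposited probe annotation gave symbols and chromosomes; it also holds 72 columns of per-sample values named by chip and position, which were not used. The arrays were quantified with Illumina's BeadArray software, and the authors' own analysis was run in GeneSpring GX. A version of the former and a genome build for the probe annotation are not given in the sources used here. Intensities were background-corrected on the detection p-values, given an offset of 16, quantile-normalized and set on the log2 scale (neqc, limma 3.58.1, R 4.3.3), which understates changes of dim probes. The 18 arrays were fitted in limma with 6 group means, two-sided, with Benjamini-Hochberg adjustment over all probes detected (p under 0.05) on all 3 arrays of at least 1 compared group. A probe was called at an adjusted p under 0.05 and at least 1.5-fold. Signals per array are quoted as deposited.

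A gene was represented by its brightest probe. If the dimmer group had fewer than 3 arrays with detection, the fold is a lower bound: the mean of the brighter group against the mean, per array, of the higher of the probe's own signal and the lowest signal of any detected probe. Precision is limited by 3 arrays per group. The members and lists were chosen with earlier results of these data known. Named genes were Hprt, all members, at most 4 genes per list with the largest change, and the 5 genes most correlated with the members; Unc45b and Myog were added after their values were seen, and undetected markers are named as such. In other lists 7 genes had no probe under any symbol matched here. Promoters came from RefSeq (GRCm38.p6). The fit was tested on simulated data. Probe sequences were not analysed here, so cross-hybridization between the closely similar heavy chains was not checked. Deviations of same-numbered control and knockdown arrays, taken as paired where every r was over 0.1, correlated at 0.486, 0.108 and 0.489 in SNM cells, at 0.605, 0.0938 and 0.325 at the neuronal stage and at -0.0938, 0.0254 and 0.0959 in ES cells. The pairing of the SNM arrays comes from this check alone, and the second pair (0.108) was below the correlation with another number (0.191). Between stages, same-numbered knockdown SNM and knockdown neuronal arrays correlated at 0.522, 0.139 and 0.511, each above the correlation with another number. The other comparisons between neighbouring stages did not pass 0.1 for every number. The alternatives were other normalizations, offsets, filters, thresholds, probe summaries, tests, a replicate block and leaving out each array.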

Additional observations from a re-analysis of the deposited data

Results flagged for a closer look

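By limma's interaction test the knockdown effect was called as different between the ES and SNM stages for 5 members. The log2 differences of effects were 2.02 for Myh8, 1.69 for Myh3, 1.14 for Myl4, 0.73 for Mylpf and 0.64 for Myl3. Myh8 passed the filter through the SNM groups alone, detected on 1 of 3 arrays of each ES group, so its value is a description.

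For 6 members all knockdown arrays lay on one side of all control arrays at the SNM stage and on the opposite side at the neuronal stage, on the normalized scale. Of 19498 probes tested at both stages 13.3% did so, and at the neuronal stage alone the arrays of 62.8% of all probes tested did not overlap. Log2 differences, knockdown minus control, were 1.69 and -8.14 for Myh3 (detected on 2 of 3 knockdown neuronal arrays, so that the second value is no bound), 1.99 and -8.12 for Myh8, 0.66 and -7.64 for Myl1, 1.35 and -7.38 for Myl4, and 0.96 and -7.22 for Mylpf. Myl3 had the reverse order, at -0.41 and 1.30 (detected on 2 of 3 control neuronal arrays). The difference between these stages was not tested, since the members were chosen on the neuronal-stage arrays. Groups of 3 arrays were not tested for outlying arrays.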

How the results depend on the processing

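Of 88 counts of members recomputed under other settings, 87 stayed within 1.5 times the reported count, and no tested member that was called or past the fold threshold changed direction under any setting. With a 2-fold threshold the count of members whose knockdown effect differed between the SNM and ES stages went from 5 to 3 (Mylpf and Myl3 were under it). With each array left out in turn, the counts ranged from 1 to 2 for knockdown against control in ES cells. The second was Myl1 without the first knockdown ES array, a description, since the arrays left in that group did not detect it. Counts ranged from 4 to 5 at the SNM stage, from 4 to 6 for the difference of the effects, and from 8 to 9 past 1.5-fold over the last step in control cells. The counts stayed at 5 for both ES to SNM comparisons, at 9 for the neuronal stage and at 6 for the last step in knockdown cells. Counts here and below include the descriptions of Myh8 and Myl1 named above. Myl1 at the SNM stage, not called as reported, was called under 6 of 30 alternatives, among them quantile normalization without background correction (0.64, limma adjusted p = 0.00289), an offset of 50 (0.64, limma adjusted p = 0.0231) and the methods' t-test. Its adjusted p lay between 1.35e-04 and 0.25 over its alternatives. The difference of effects of Mylpf was not called with scaling to the 75th percentile (0.50) or without normalization between arrays (0.54).

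The comparisons that used the neuronal-stage arrays gave 240 values recomputed under settings that kept all arrays. Of these, 87 moved by more than the spread between arrays and none reversed. They were 24 with scaling to the 75th percentile and 22 with quantile normalization, both without background correction, 21 with an offset of 50, 11 with the mean over probes and 9 without normalization between arrays. The descriptions of Myh8 and Myl1 from the earlier stages were not among the 240. The rise of Myh8 over the first step in control cells went from 2.11 to 0.98 with scaling to the 75th percentile.

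With the array number as a replicate block, the counts were as reported, with 1 member called in ES cells, 4 in SNM cells (Myl1 at an adjusted p of 0.0873 in limma's test) and 5 in each of the other tested comparisons, so that the pairing of the SNM arrays changed no call. The methods' t-test called 294 probes at the ES stage, 78 after Benjamini-Hochberg adjustment, against 310 by limma, and at the SNM stage 4018 and 3730 against 4127. Without normalization between arrays the median of all probes tested moved by 0.28 for the ES to SNM step in control and 0.23 in knockdown cells, and the share of called probes that were higher went from 48.4% to 68.4% and from 46.1% to 60%, and for the knockdown in ES cells from 30.6% to 55.6%. Myh8 and Myl1 lay near the detection limit at the ES stage, which limits the precision of their ES values. Myl3 was dim at the SNM stage (81.4 to 105), which limits its SNM values likewise. The causes of these shifts were not tested.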
